A study of Mus musculus with 60 samples.

Results

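The choroid plexus genes described here are 10 genes whose transcripts are abundant in the epithelium of the choroid plexus: Ttr, Kcnj13, Clic6, Sostdc1, Folr1, Kl, Otx2, Aqp1, Enpp2 and Slc4a5. They were taken by symbol from a microarray table of fetal mouse brain, and a gene was represented by the row (transcript cluster, usually 1 per gene) that carries its symbol alone. Rows were found for 9 of the 10, among 19938 genes tested, and each of the 9 had 1 row. Enpp2, which encodes autotaxin, was not analysed here.

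The choroid plexus is a sheet of epithelium around a core of vessels and connective tissue that hangs into the brain ventricles and secretes the cerebrospinal fluid. Its cells form a tight barrier, move ions, water and folate between blood and fluid, and secrete carrier proteins. The sheets develop at separate sites in the roof of the hindbrain, the third ventricle and the lateral ventricles, under the control of factors that include Otx2. The 9 measured genes are read here as a readout of how much choroid plexus RNA the brain pools held, and in such pools fewer cells of a type and less RNA per cell cannot be told apart.

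Pregnant mice of the B6.129 strain background received chlorpyrifos oxon (CPO), the active metabolite of the insecticide chlorpyrifos, on each of 12 days from gestational day 6 to 17, and fetal brains were taken on day 18. Each of 60 Affymetrix Mouse Gene 1.0 ST arrays held the pooled RNA of the fetal brains of 1 dam, so that the dam is the replicate. Dams had been drawn at random once those with outlying brain acetylcholinesterase activity were dropped. The labels give 12 groups of 5 dams. Wild type mice (WT), mice with human PON1 of the Q192 form (tgHuPON1Q192, Q-tg) and mice with the R192 form (tgHuPON1R192, R-tg) received CPO at 0, 0.75 or 0.85 mg/kg/d, and PON1 knockout mice (KO) received 0, 0.50 or 0.75 mg/kg/d. PON1 is the serum enzyme that hydrolyses CPO. The promoter of the transgenes and the mouse Pon1 alleles of the transgenic lines are not given in the sources used here.

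Group names below are the labels. The Pon1 signal went against the genotype label on 10 of the 60 arrays: 5 of the 15 arrays labelled KO had a high signal (at least 9.72 on the log2 scale), and 5 arrays with another label had a low signal (at most 5.67). One of these is replicate 3 of Q-tg at dose 0, which recurs below. The KO arrays with a high signal were replicates 1 and 2 at dose 0 and replicates 1, 4 and 5 at 0.75. Contrasts of these KO groups therefore follow the label and mix arrays with high and low Pon1 signal. Any 2 arrays correlated between 0.986 and 0.998 over the 21789 rows tested. Brain markers were present throughout, with 11 of 11 neuronal and 9 of 9 radial glia genes above the dim level. That level, 6.54, is the 95th percentile of 1035 olfactory receptor rows, and 15611 rows were above it.

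All 9 measured choroid plexus genes had a mean above the dim level, and their highest and lowest arrays differed by 1.42-fold (Otx2) to 1.69-fold (Kcnj13). The values that follow are log2 signals over the 60 arrays, and levels of different genes are not set against each other because each has its own probes. Ttr encodes transthyretin, the carrier of thyroid hormone and retinol-binding protein that the epithelium secretes in large amounts. Its signal had a mean of 12.64 ± 0.11 (SD, n = 60) and ran from 12.24 to 12.83, a 1.51-fold range. Sostdc1, a secreted antagonist of BMP and Wnt signalling, had 7.99 ± 0.13 (SD, n = 60), from 7.58 to 8.23. Both were lowest on the same array, replicate 3 of Q-tg at dose 0.

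Among the channels and transporters, Kcnj13, which encodes the inward rectifier potassium channel Kir7.1 of the apical membrane, had the widest range. Its signal had a mean of 8.46 ± 0.16 (SD, n = 60) and ran from 8.02 to 8.77. Clic6, a member of the chloride intracellular channel family, had 7.10 ± 0.13 and ran from 6.78 to 7.43. Aqp1, the water channel of the apical membrane, had 7.49 ± 0.12, from 7.21 to 7.76. Slc4a5, a sodium bicarbonate cotransporter, had 7.03 ± 0.13, from 6.73 to 7.36. Replicate 3 of Q-tg at dose 0 was also the lowest of the 60 arrays for Kcnj13, Clic6 and Slc4a5, whereas Aqp1 was lowest on an array of WT at 0.75.

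Folr1, the folate receptor that carries folate across the epithelium, had 8.19 ± 0.11 (SD, n = 60), from 7.86 to 8.42, and was the sixth gene with its lowest value on replicate 3 of Q-tg at dose 0. Kl encodes klotho, a co-receptor for FGF23 that is also shed into the cerebrospinal fluid. Its mean of 6.66 ± 0.12 was 0.12 above the dim level, so it is the member with the least signal over background, and it ran from 6.41 to 7.01. Otx2 is a homeodomain transcription factor of the choroid plexus, the midbrain and the retina, and had 8.95 ± 0.12, from 8.73 to 9.24. For comparison, the median SD over the 60 arrays was 0.11 among all rows tested, and Kcnj13 lay at the 83.1 percentile of SDs.

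**Figure D1:**
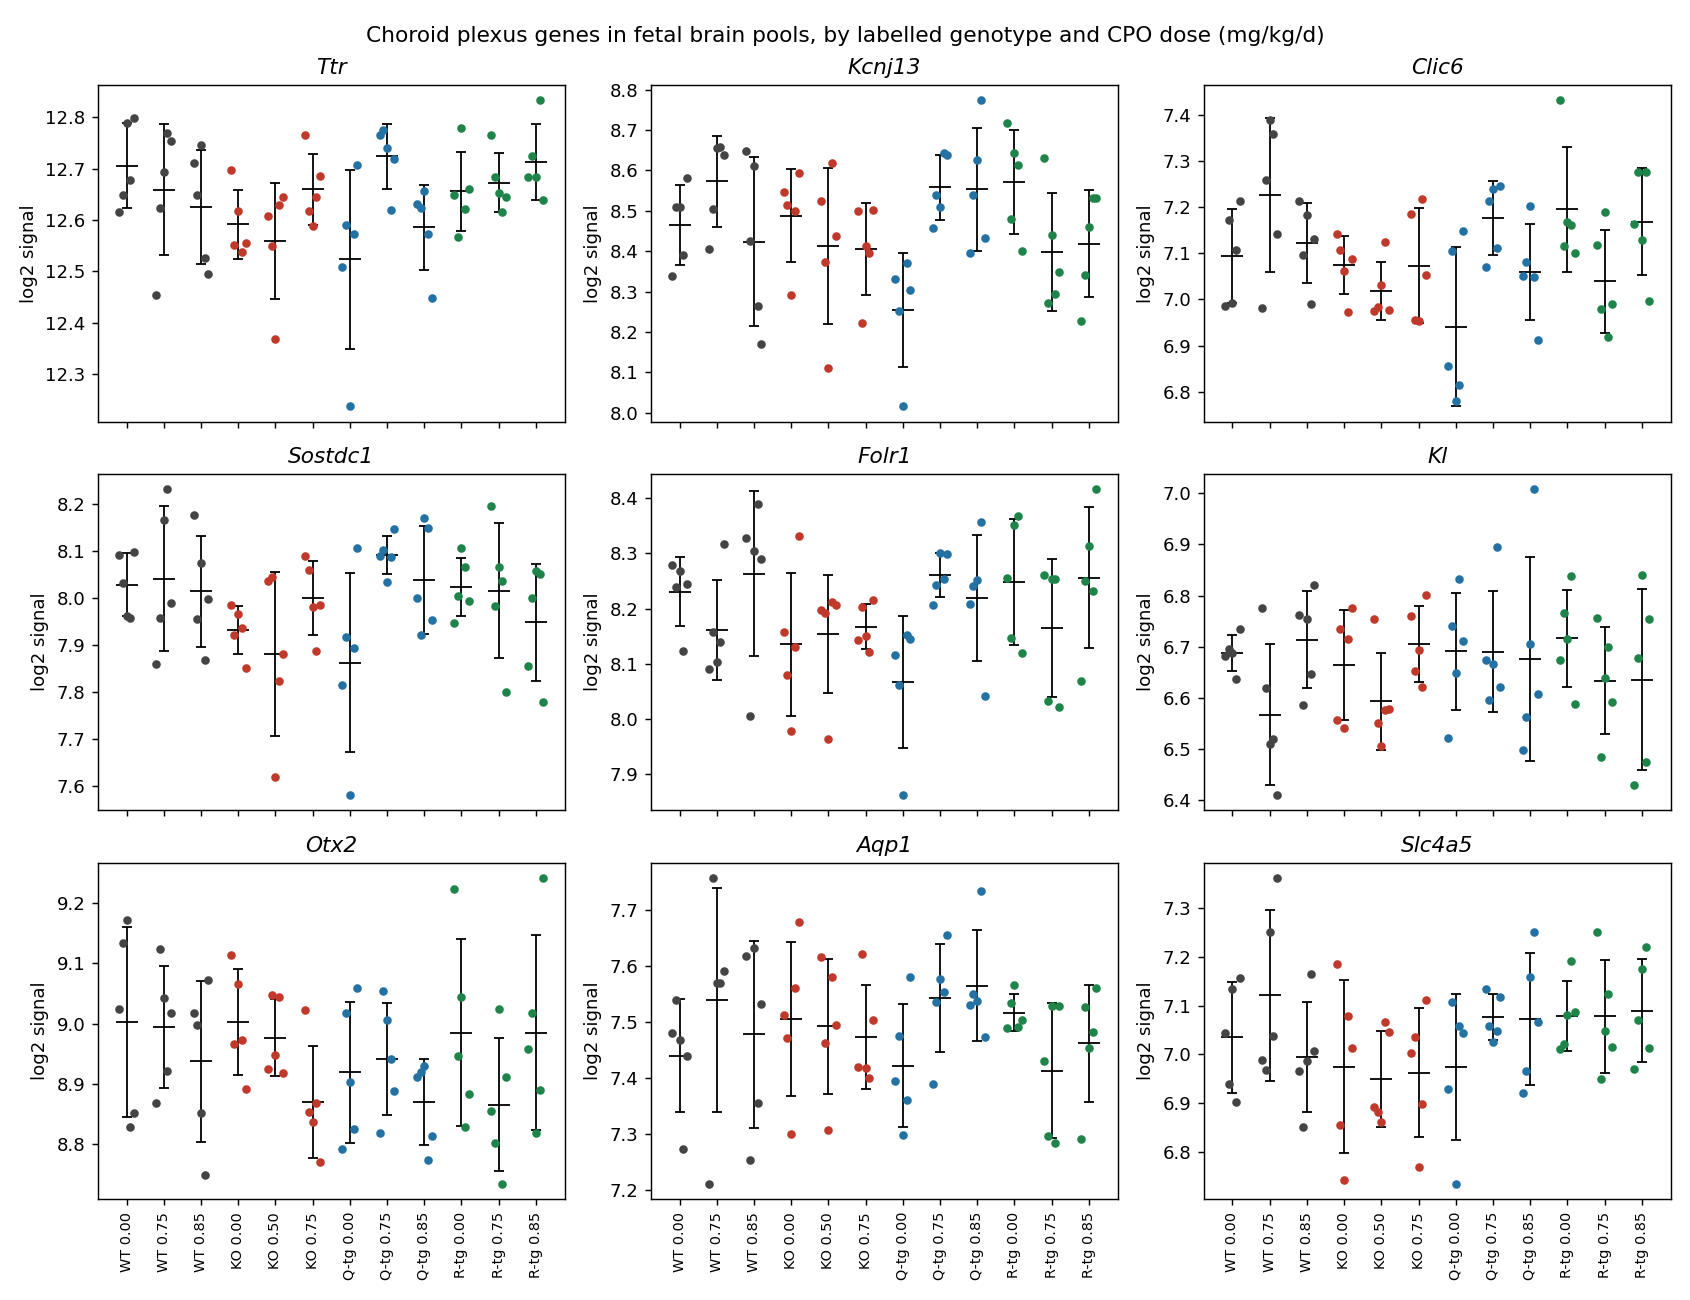
Log2 signal of the 9 measured choroid plexus genes by labelled genotype and CPO dose in mg/kg/d (x axis), 5 arrays per group as points, with the group mean (line) and SD (bars); each panel has its own log2 scale. Q-tg at dose 0 has the lowest group mean for Ttr, Kcnj13, Clic6, Sostdc1 and Folr1, and its lowest point in these panels is replicate 3.

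Promoter sequences are shown for genes that varied together over the arrays (Kcnj13, Aqp1 and Slc4a5) and for Otx2, the factor among them. They are the 250 bases before the RefSeq start site, 5′ to 3′ on the gene's strand, from GRCm38.p6; RefSeq windows were at hand for these and for Kl. Kcnj13 lies at chr1:87394730-87394979, minus strand, Aqp1 at chr6:55336049-55336298, plus strand, Slc4a5 at chr6:83237125-83237374, plus strand, and the third of 4 Otx2 starts at chr14:48665110-48665359, minus strand. Capitals mark matches, on either strand, to the TATA box TATAAA, the CCAAT box CCAAT, the GC box GGGCGG and the OTX core TAATCC; no match overlaps another.
Kcnj13: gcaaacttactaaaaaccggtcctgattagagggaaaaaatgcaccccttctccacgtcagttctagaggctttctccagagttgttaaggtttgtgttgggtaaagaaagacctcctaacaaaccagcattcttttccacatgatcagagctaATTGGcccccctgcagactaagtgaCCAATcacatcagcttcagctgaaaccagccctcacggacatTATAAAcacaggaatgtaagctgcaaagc
Aqp1: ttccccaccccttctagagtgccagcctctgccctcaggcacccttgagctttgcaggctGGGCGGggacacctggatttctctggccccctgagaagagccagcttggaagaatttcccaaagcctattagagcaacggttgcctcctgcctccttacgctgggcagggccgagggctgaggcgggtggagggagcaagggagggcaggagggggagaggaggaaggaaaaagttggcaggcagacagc
Slc4a5: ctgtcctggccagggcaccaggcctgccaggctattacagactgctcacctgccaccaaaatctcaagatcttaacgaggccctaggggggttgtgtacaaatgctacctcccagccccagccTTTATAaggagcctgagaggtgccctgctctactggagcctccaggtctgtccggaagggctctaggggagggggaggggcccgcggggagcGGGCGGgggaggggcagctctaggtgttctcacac
Otx2: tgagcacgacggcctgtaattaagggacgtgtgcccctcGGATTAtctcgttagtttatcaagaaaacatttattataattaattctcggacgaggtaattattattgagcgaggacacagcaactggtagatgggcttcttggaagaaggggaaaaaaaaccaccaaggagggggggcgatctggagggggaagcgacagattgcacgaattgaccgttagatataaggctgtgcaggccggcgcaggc
The Kcnj13 window holds a TATA box that begins 29 bases before the start and CCAAT boxes that begin 96 and 71 bases before it. The Slc4a5 window holds TATAAA on the opposite strand, beginning 127 bases before the start. The Aqp1 and Slc4a5 windows hold 1 GC box each, beginning 190 and 35 bases before the start, and the Kl window, not printed, holds a pair. The only TAATCC match, 211 bases before the start, was in the printed Otx2 window, and not in those of the other Otx2 starts. Those windows held TATAAA (192 bases before the start), CCAAT (70 bases before it) or no match. Of 32851 mouse promoter windows, 12.4% hold TATAAA, 33.8% CCAAT, 32.7% GGGCGG and 6.25% TAATCC. Aqp1 and Slc4a5 thus share a match that is common among promoters, and no GGGCGG was found in the Kcnj13 window.

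Of the 9 genes, 7 varied together over the 60 arrays, while Otx2 and Kl stood largely apart. Of the 36 pairs of members, 31 had a positive Pearson r, with a median of 0.39. The r of 23 pairs passed an adjusted p of 0.05 by permutation (100000 permutations, two-sided, Benjamini-Hochberg over the 36 pairs), and all 23 were positive. Among the 7, the pair that did not pass was Ttr and Aqp1 (r = 0.27, permutation, adjusted p = 0.054). The median r over all pairs of the 21789 rows was 0.04, and 24.3% of such pairs had an r of at least 0.28, the smallest that passed. Spearman's rho passed for 20 pairs.

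Ttr and Sostdc1, the secreted proteins, had the highest r of any pair, 0.67 (rho 0.55, permutation p = 1e-05, the smallest that these permutations can give, adjusted p = 7.2e-05). Ttr was the gene most like Sostdc1 among all rows tested, and Sostdc1 came second to Car12 for Ttr. Without the 2 arrays farthest from the median of Ttr the r was 0.50. Within the labelled genotypes, each with 15 arrays, it was 0.59 in WT, 0.68 in KO, 0.82 in Q-tg and 0.40 in R-tg. Ttr and Clic6 followed with an r of 0.60 (rho 0.65, permutation p = 1e-05, adjusted p = 7.2e-05), and 0.56 without the 2 farthest arrays.

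Among the transport genes, Kcnj13 and Aqp1 had an r of 0.58 (rho 0.58, permutation p = 2e-05, adjusted p = 8e-05), which was 0.52 without the 2 arrays farthest from the median of Kcnj13. Within the labelled genotypes r was 0.48 in WT, 0.57 in KO, 0.78 in Q-tg and 0.58 in R-tg, and of these the Q-tg value alone passed (permutation, adjusted p = 0.26, 0.174, 0.00328 and 0.204). Kcnj13 also varied with Folr1 (r = 0.56, rho 0.51, permutation p = 1e-05, adjusted p = 7.2e-05). That relation was 0.91 within Q-tg and 0.65 within R-tg, but -0.10 within WT. Folr1 and Slc4a5 had an r of 0.55 (rho 0.47, permutation p = 2e-05, adjusted p = 8e-05), between 0.40 and 0.67 within the labelled genotypes.

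Kl passed with 1 partner, Folr1 (r = 0.41, rho 0.43, permutation p = 0.00119, adjusted p = 0.00268). Otx2 passed with a pair of partners, Clic6 (r = 0.39, rho 0.40, permutation p = 0.00198, adjusted p = 0.00396) and Aqp1 (r = 0.28, rho 0.31, permutation p = 0.0312, adjusted p = 0.0488). The median r with the other members was 0.19 for Kl and 0.11 for Otx2, against 0.36 to 0.54 for the other 7. Kl and Otx2 moved with the shape of the array's signal distribution: the r with the lower quartile of an array was 0.55 for Kl and -0.52 for Otx2. Among the other 7 it was 0.45 for Folr1, -0.40 for Clic6 and 0.31 for Slc4a5, and from -0.17 to 0.10 for the rest. The r with the median of an array was 0.54 for Otx2, 0.45 for Aqp1 and 0.37 for Kcnj13, and from -0.13 to 0.28 for the rest. With arrays centred on their median 22 pairs passed, 21 of them positive. The part of the lower quartile in the relations was not tested.

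**Figure D2:**
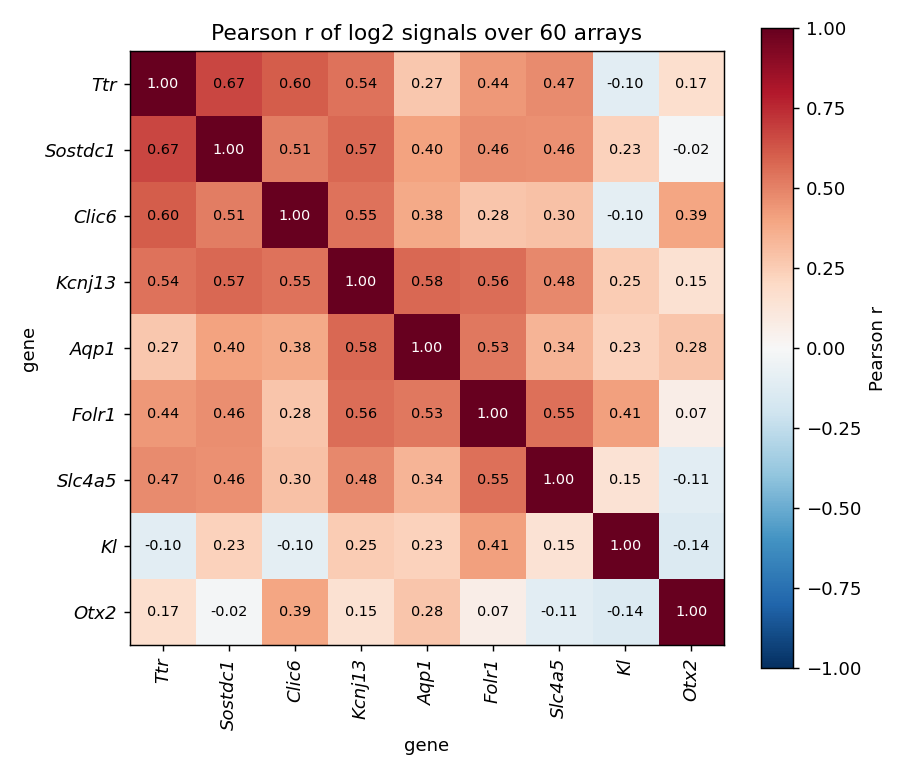
Pearson r of log2 signals over the 60 arrays for each pair of choroid plexus genes (rows and columns), from -1 in blue to 1 in red. The block from Ttr to Slc4a5 is positive throughout, from 0.27 to 0.67, and the Kl and Otx2 rows are paler.

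The co-variation rests in part on the Q-tg arrays and on a pair of arrays where most members were low. The mean z score of the 9 genes was -2.18 on replicate 3 of Q-tg at dose 0, where all 9 were below their mean, and -1.60 on replicate 3 of KO at 0.50, where 8 were. The next lowest array, replicate 1 of Q-tg at dose 0, was at -1.12, and the highest, replicate 4 of Q-tg at 0.85, at 0.99. Without the 2 lowest arrays 17 pairs passed, with a median r of 0.28. Within one labelled genotype, over 15 arrays, 18 pairs passed in Q-tg, 2 in WT, 1 in KO and 0 in R-tg, with median r of 0.59, 0.15, 0.30 and 0.35. Taken as deviations from the mean of the labelled group, 24 pairs passed, with a median r of 0.36. Clic6 then no longer passed with Folr1 (r = 0.09) or Slc4a5 (r = 0.15). Ttr and Aqp1 (0.35), Kcnj13 and Kl (0.37), and Kl and Aqp1 (0.29) came to pass.

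**Figure D3:**
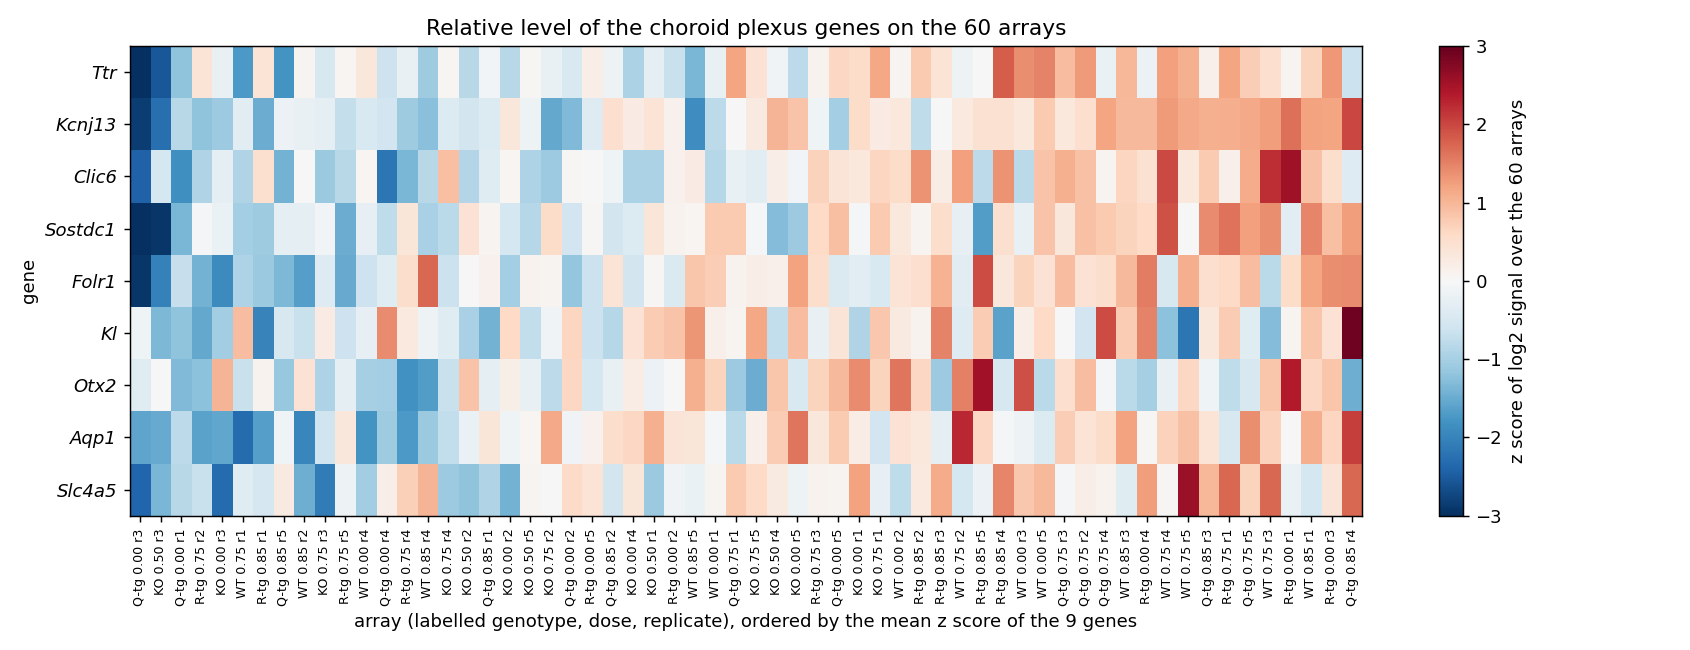
Z score of the log2 signal of each choroid plexus gene (rows) on each of the 60 arrays (columns, named by label and replicate), ordered from the lowest to the highest mean z score, from -2.18 to 0.99. The 2 columns at the left, Q-tg dose 0 replicate 3 and KO 0.50 replicate 3, are blue in most rows.

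A wider list of choroid plexus genes varied with the 9. Of 69 entries 64 were measured and 55 were above the dim level. Their r with the mean z score of the 9 genes was above 0 for 61 of 64, with a median of 0.30, against 0.05 over all rows tested, and 32 exceeded an r of 0.3, as did 8.87% of all rows. The highest were Car12, a carbonic anhydrase (r = 0.70), Lbp, a lipopolysaccharide-binding protein (0.66), Cldn1, a tight junction claudin (0.59), and Abca4, a lipid transporter (0.58). The mean of the 64 had an r of 0.80 with that score. Kcnj13 followed it most closely of the members (r = 0.80, rho 0.80, permutation p = 1e-05, adjusted p = 0.000115 over 126 relations of 14 lists with the members; r = 0.77 without the 2 farthest arrays and 0.56 to 0.90 within the labelled genotypes). Otx2 was the member that did not pass (r = 0.20, rho 0.16, permutation p = 0.137, adjusted p = 0.227). The share of all rows that pass with the mean of the 64 is not given here.

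Genes that are on neither choroid plexus list varied with these genes too. The rows most like the mean z score of the 9 genes, over 60 arrays, were Crabp1 (r = 0.82), Esrrg (0.71), Mab21l2 (0.71), Penk (0.71), Vamp1 (0.71), Pcp4l1 (0.71), Prph (0.70), Aldoc (0.70), Cd81 (0.70), Car12 (0.70), Pygb (0.70) and Laptm4b (0.69). Crabp1 encodes a cytosolic retinoic acid-binding protein, Esrrg an orphan nuclear receptor, Penk the enkephalin precursor and Prph the neuronal intermediate filament peripherin. Only Car12 of these 12 is on a list of choroid plexus genes. For single members, the row most like Kcnj13 was Slc1a3, the glial glutamate transporter (r = 0.77). The rows most like Clic6 were Meis1, a homeodomain partner of Hox proteins (0.75), Ctso (0.72) and Lynx1 (0.70). For Otx2 they were Pbx2 (0.78), Tpx2 (0.75) and Tmem126b (0.74), for Folr1 Mapk12 (0.70), Hsd11b2 (0.69) and Slc30a3 (0.67), and for Kl Krtap4-7 (0.69), H2-T10 (0.67) and Nrap (0.67). After Crabp1 (0.69), Aqp1 was most like Nxn (0.69) and Surf4 (0.69). Slc4a5 was most like Hoxb2 (0.61), Pax2 (0.58) and Plpp4 (0.58). Hoxb2 is a hindbrain gene and Pax2 marks the boundary of midbrain and hindbrain.

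The mean of the Hox genes, which mark the hindbrain and the spinal cord, passed with 8 of the 9 members over the 60 arrays, and with 6 as deviations from the mean of the labelled group. Such relations were common: 38.4% of all rows tested had an r with the Hox mean at least as far from 0 as 0.30, the smallest of the 8. Of 18 Hox genes 17 were measured and 7 were above the dim level. Their mean log2 signal ran from 5.98 to 6.83 over the arrays, and by group from 6.24 in KO at 0.50 to 6.57 in Q-tg at 0.75. It was correlated with Slc4a5 (r = 0.60, rho 0.62, permutation p = 1e-05, adjusted p = 0.000115; 0.63 without the 2 farthest arrays), and the r within a labelled genotype, which was not tested, was 0.47 in WT and KO, 0.65 in Q-tg and 0.82 in R-tg. With Kcnj13 the r was 0.46 (rho 0.49, permutation p = 0.00016, adjusted p = 0.00084), but 0.11 within KO. Otx2 in the embryo is a gene of the forebrain and midbrain with a boundary at the hindbrain. Its r with the Hox mean was negative (-0.30, rho -0.28, permutation p = 0.0208, adjusted p = 0.0423). Within the 4 labelled genotypes it was negative too, from -0.47 in WT to -0.13 in Q-tg. A negative r of Otx2 was not particular to the Hox genes. It was -0.52 with the lower quartile of an array, -0.46 with the mean of retinal pigment epithelium and melanocyte genes, and -0.47 with that of photoreceptor and pineal genes. Highest among the Hox genes with the mean z score were Hoxd3 (0.60), Hoxb5 (0.60), Hoxb2 (0.59) and Hoxb3 (0.58). How much the regional make-up of the pools accounts for in the co-variation was not tested.

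**Figure D4:**
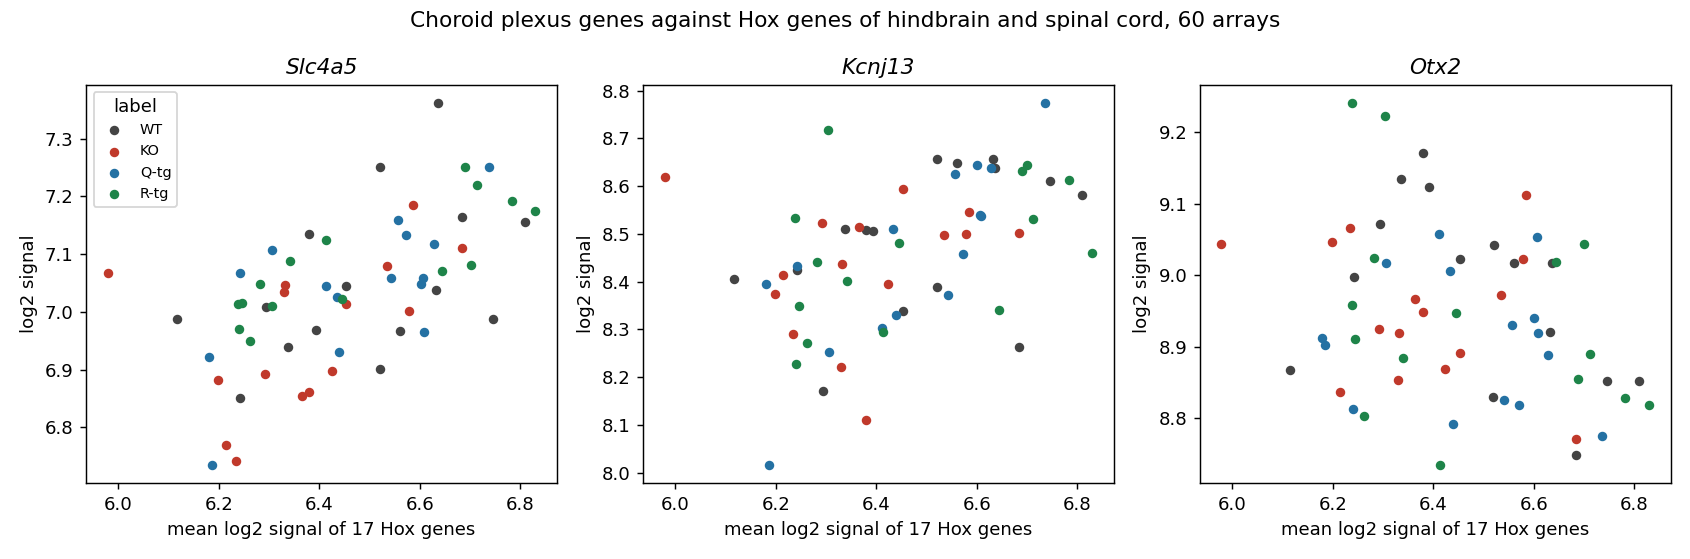
Log2 signal of Slc4a5, Kcnj13 and Otx2 (y axes) against the mean log2 signal of 17 Hox genes (x axis) on the 60 arrays, coloured by labelled genotype. Slc4a5 and Kcnj13 are higher where the Hox mean is higher (r = 0.60 and 0.46), and Otx2 is lower (r = -0.30).

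Other tissues that carry some of these transcripts were checked by their own markers. Of 12 genes of the retinal pigment epithelium and melanocytes, 5 were above the dim level, among them Rlbp1 (8.81), Slc45a2 (6.79) and Lrat (6.56). Rpe65 (4.92) and Tyr (5.06), picked after their values were seen, were below it. The mean of the 12 genes had an r of -0.02 with the mean z score of the 9 choroid plexus genes. Single members went both ways with this list mean, and 5 of 9 passed by permutation: Kl (r = 0.52), Folr1 (0.42), Ttr (-0.33), Clic6 (-0.43) and Otx2 (-0.46). All 5 had an r of the same sign with the lower quartile of an array, in this order 0.55, 0.45, -0.17, -0.40 and -0.52. Of 12 photoreceptor and pineal genes 3 were above the dim level, Six6 (6.98), Sag (6.65) and Aanat (6.56), while Crx (6.02) was below. The r of their list mean with the mean z score was 0.00. Members again passed in both directions: Kl (0.49), Folr1 (0.49), Clic6 (-0.45) and Otx2 (-0.47). The r of the list mean was -0.05 for the pituitary (8 of 11 above the dim level), 0.15 for erythroid cells (4 of 10), 0.18 for liver and yolk sac (5 of 14) and 0.20 for ependyma and motile cilia (13 of 20). It was 0.27 for midbrain and forebrain factors (13 of 13), 0.36 for meninges and fibroblasts (14 of 14) and 0.36 for endothelium and pericytes (12 of 12). It was 0.47 for neurons, 0.54 for radial glia, led by Slc1a3 (0.64) and Pax6 (0.59), and 0.56 for the oligodendrocyte lineage (8 of 8), led by Mbp (0.53). The median r of single genes was 0.37 for radial glia (7 of 9 positive) and 0.30 for the oligodendrocyte list (8 of 8). For neurons it was 0.07 (7 of 11) and for midbrain and forebrain factors 0.04 (8 of 13), near the 0.05 over all rows. By permutation, 6 of 9 members passed with the mean of the oligodendrocyte list, 5 with radial glia, 4 with neurons and 0 with the pituitary. The share of all rows that pass with these list means is not given here. The part of these cell types in the levels of the 9 genes was not tested.

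The design asks whether CPO in pregnancy, or PON1 status, goes with a difference in the fetal brain. No choroid plexus gene passed the threshold in any of 21 contrasts (limma, adjusted p under 0.05 over 21789 rows). In 20 of the contrasts 0 rows were called in all (0%), and in the remaining one, the R-tg minus WT difference in response to 0.75, 1 row was called (0.00459%), not a member. Over the 12 labelled groups limma's moderated F also called 0 of 9 members and 0% of all rows. It was largest for Clic6 (F = 2.61), Kcnj13 (2.40) and Ttr (2.12), each with a limma adjusted p of 0.95. These 3 had an unadjusted p under 0.05, as did 4.84% of all rows. Differences among groups took up 36.8% of the variance of Clic6, 34.4% of Kcnj13 and 32.7% of Ttr, against a median of 18.3% over all rows. For each of the 9 genes, all 11 neighbours in the order of the 12 group means overlapped in range. Neighbours in a sorted order have close means, so this cannot show whether groups farther apart overlap.

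The median difference of the members between doses was larger in Q-tg than in the other labelled genotypes, though no member passed. At 0.75 against 0, 8 of 9 had a higher mean, with a median log2 difference of 0.19 against 0.00 over all rows, and 5 of 9 had an unadjusted p under 0.05, as did 2.35% of all rows. For Kcnj13 the Q-tg arrays read 8.33, 8.25, 8.02, 8.37 and 8.30 at dose 0, and 8.46, 8.54, 8.51, 8.64 and 8.64 at 0.75. The lowest array at 0.75 was above the highest at dose 0, and the groups did not overlap for 2 of 9 members, as for 0.909% of all rows. The log2 difference was 0.30 ± 0.09 (SE, n = 5 per group, limma adjusted p = 1.00), with a 95% interval from 0.13 to 0.48. At 0.85, 3 of 9 members had an unadjusted p under 0.05 (3.86% of all rows), and Kcnj13 was again the highest. Its arrays read 8.40, 8.54, 8.63, 8.77 and 8.43, again all above dose 0, which held for 1 of 9 members (groups did not overlap for 1.45% of all rows), and the difference was 0.30 ± 0.09 (limma adjusted p = 0.999).

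Folr1 was the other gene whose Q-tg groups did not overlap between 0 and 0.75. Its arrays read 8.12, 8.06, 7.86, 8.15 and 8.15 at dose 0, against 8.21, 8.24, 8.30, 8.25 and 8.30 at 0.75. The log2 difference was 0.19 ± 0.07 (SE, n = 5 per group, limma adjusted p = 1.00). At 0.85 it was 0.15 ± 0.07 (limma adjusted p = 0.999), and the groups overlapped.

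Ttr in Q-tg read 12.51, 12.59, 12.24, 12.57 and 12.71 at dose 0, and 12.77, 12.78, 12.74, 12.62 and 12.72 at 0.75. The groups overlapped, and replicate 3 at dose 0 was 0.27 below the next lowest array of its group. The difference was 0.20 ± 0.06 (SE, n = 5 per group, limma adjusted p = 1.00) at 0.75 and 0.06 ± 0.06 at 0.85. Clic6 differed by 0.24 ± 0.07 and Sostdc1 by 0.23 ± 0.07 at 0.75 (limma adjusted p = 1.00 for both). Aqp1 (0.12 ± 0.08), Slc4a5 (0.10 ± 0.08), Otx2 (0.02 ± 0.07) and Kl (0.00 ± 0.07) were closer to 0 against their errors.

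These differences were smaller without replicate 3 of Q-tg at dose 0, an array that also goes against its Pon1 label. The difference at 0.75 was then 0.24 for Kcnj13, 0.19 for Clic6, 0.16 for Sostdc1, 0.14 for Folr1 and 0.13 for Ttr, the last 1.55 times smaller. At 0.85 it was 0.24 for Kcnj13, 0.11 for Sostdc1 (1.66 times smaller) and 0.10 for Folr1 (1.51 times smaller). The list values that follow keep replicate 3 of Q-tg at dose 0, and were not computed without it. The wider choroid plexus list had 52 of 64 genes higher at 0.75, with a median of 0.06 against 0.00 over all rows. Of these, 6 had an unadjusted p under 0.05, as did 2.35% of all rows. The 4 with the largest difference were Car2 (0.23), Car12 (0.23), Cldn1 (0.22) and Lbp (0.19). At 0.85, 53 of 64 were higher with a median of 0.05, against 0.01 over all rows. Hox genes were higher at 0.75 in 15 of 17 cases, with a median of 0.18, led by Hoxa5 (0.80), Hoxb5 (0.48), Hoxa2 (0.43) and Hoxb3 (0.28). None of the genes of either list passed (0 of 81), and the part of the Hox-expressing regions in the members' difference was not tested. Both lists varied with the members over these same arrays, so they are not separate observations.

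**Figure D5:**
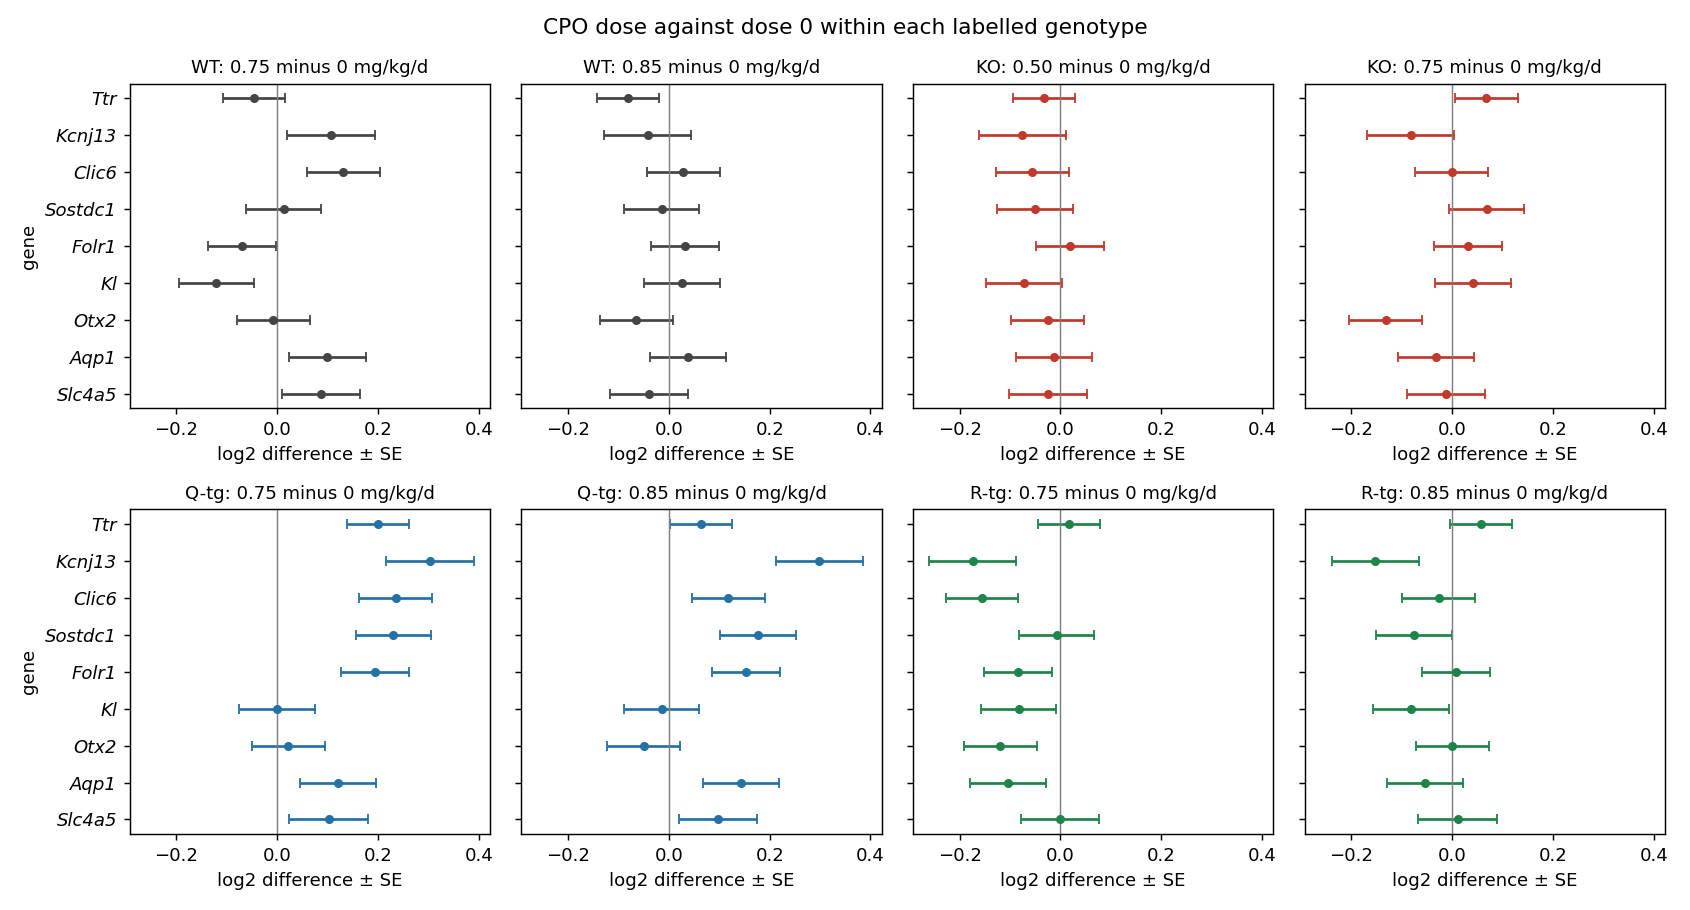
Log2 difference of each choroid plexus gene (rows) between a CPO dose and dose 0 within each labelled genotype, as the estimate with its SE from the 12-group limma model, 5 arrays per group. In Q-tg at 0.75 8 of 9 points lie right of 0, up to 0.30, and in R-tg at 0.75 8 of 9 lie left of it, down to -0.17.

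The other labelled genotypes gave smaller and mixed differences. In WT, differences at 0.75 ran from -0.12 (Kl) to 0.13 (Clic6), and at 0.85 from -0.08 (Ttr) to 0.04 (Aqp1), with 0 of 9 at an unadjusted p under 0.05 at either dose, against 10.2% and 2.15% of all rows. In KO they ran from -0.08 (Kcnj13) to 0.02 (Folr1) at 0.50 and from -0.13 (Otx2) to 0.07 (Sostdc1) at 0.75, again with 0 of 9 (1.84% and 2.9% of all rows). The KO groups at 0 and at 0.75 include the arrays with a high Pon1 signal, so these are contrasts of labels. The Kcnj13 difference in KO at 0.50 rests on replicate 3 of that group, one of the 2 lowest arrays, and was -3.5e-05 without it. In R-tg at 0.75, 8 of 9 were lower with a median of -0.08, and 2 had an unadjusted p under 0.05 (5.31% of all rows). They were Kcnj13 (-0.17 ± 0.09, limma adjusted p = 0.898) and Clic6 (-0.16 ± 0.07, limma adjusted p = 0.898), the latter -0.0969 without replicate 1 of R-tg at dose 0. At 0.85 in R-tg the range was -0.15 (Kcnj13) to 0.06 (Ttr), with 0 of 9 at an unadjusted p under 0.05 (4.86% of all rows). Averaged over WT, KO, Q-tg and R-tg, the difference at 0.75 was largest for Sostdc1 (0.08 ± 0.04, limma adjusted p = 0.966), the 1 member with an unadjusted p under 0.05 (4.08% of all rows). Averaged over WT, Q-tg and R-tg at 0.85 it ran from -0.04 (Otx2) to 0.06 (Folr1), with 0 of 9 at that level (1.67% of all rows).

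At dose 0 the Q-tg arrays were again the low ones. Against WT, 8 of 9 members had a lower mean, and 5 had an unadjusted p under 0.05 (1.66% of all rows): Kcnj13 (-0.21 ± 0.09), Ttr (-0.18 ± 0.06), Sostdc1 (-0.17 ± 0.07), Folr1 (-0.16 ± 0.07) and Clic6 (-0.15 ± 0.07), with a limma adjusted p of 1.00 each. R-tg was higher than Q-tg for 9 of 9, and for 5 with an unadjusted p under 0.05 (5.43% of all rows). Kcnj13 in R-tg at dose 0 read 8.72, 8.48, 8.64, 8.61 and 8.40, all above the 5 Q-tg values given above (1 of 9 members, against 0.665% of all rows), a difference of 0.32 ± 0.09 (limma adjusted p = 0.861). KO minus WT ran from -0.11 (Ttr) to 0.06 (Aqp1), and R-tg minus WT from -0.05 (Ttr) to 0.11 (Kcnj13), with 0 of 9 at an unadjusted p under 0.05 in both (3.25% and 3.93% of all rows). The contrasts that single out Q-tg share its 5 arrays at dose 0, so they are not separate observations. Without replicate 3 of that group the Q-tg minus WT difference was -0.11 for Ttr and -0.10 for Sostdc1, and the R-tg minus Q-tg difference was 0.06 for Ttr and 0.09 for Sostdc1, each over 1.5 times closer to 0. The genotype differences were also smaller when averaged over the doses that both genotypes received. Kcnj13 was then at -0.032 in Q-tg minus WT and 0.00697 in R-tg minus Q-tg, and Clic6 at -0.0886 and 0.0751. The Q-tg minus WT difference so averaged was -0.0523 for Ttr, -0.0301 for Sostdc1 and -0.036 for Folr1, and R-tg minus Q-tg was 0.0693 for Ttr and 0.0404 for Folr1.

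The response to CPO was compared between labelled genotypes as a difference of differences, and no member passed. R-tg minus Q-tg at 0.75 was negative for 9 of 9, with 6 at an unadjusted p under 0.05 (5.81% of all rows). It was -0.48 ± 0.12 for Kcnj13 (limma adjusted p = 0.84) and -0.39 ± 0.10 for Clic6 (limma adjusted p = 0.84). For Ttr it was -0.18 ± 0.09 (limma adjusted p = 0.84), and -0.11 without replicate 3 of Q-tg at dose 0. At 0.85 it was -0.45 ± 0.12 for Kcnj13 (limma adjusted p = 0.431) and -0.25 ± 0.11 for Sostdc1 (limma adjusted p = 0.565), the 2 members with an unadjusted p under 0.05 (8.2% of all rows). Q-tg minus WT at 0.75 was positive for 9 of 9, at most 0.26 ± 0.10 for Folr1 (limma adjusted p = 1.00), and 3 had an unadjusted p under 0.05 (2.23% of all rows). At 0.85 the 1 such member was Kcnj13, with 0.34 ± 0.12 (limma adjusted p = 1.00; 1.87% of all rows). R-tg minus WT at 0.75 was -0.29 ± 0.10 for Clic6 (limma adjusted p = 0.312), the smallest adjusted p of any member in any contrast, and 2 members had an unadjusted p under 0.05 (13% of all rows). At 0.85 it ran from -0.11 (Kcnj13) to 0.14 (Ttr), with 0 such members (4.76% of all rows). KO minus WT at 0.75 ran from -0.19 (Kcnj13) to 0.16 (Kl), also with 0 (7.59% of all rows).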

How the data were processed

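The deposited values are the authors' log2 signals from RMA in the oligo package (1.22.0) under R 2.15.1, per the submitters' processing notes and deposited session listing, and were not normalized again. The table holds 28858 rows on 60 arrays; 21789 rows have 1 gene symbol in GEO's platform annotation and were tested, 1621 have several and 5448 none. The number of arrays limits the precision.

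One model of the 12 labelled groups was fitted with limma 3.58.1 in R 4.3.3, and 21 contrasts and a moderated F were taken from it. Tests were two-sided, with Benjamini-Hochberg adjustment over the 21789 rows and a threshold of 0.05. Simulated data for Q-tg 0.75 against 0 had 50 changed rows of each size among 21789. Recovered were 66% of changes of 0.25 log2 units, 96% of 0.5 and 100% of 1 and of 2. The simulated noise was independent between rows, and the larger changes eased the adjustment for the smaller ones. These shares therefore do not carry over to the measured contrast, where 0 rows were called. Correlations over arrays were tested with 100000 permutations (numpy 2.4.6, scipy 1.17.1). Promoters and coordinates are RefSeq's, GRCm38.p6.

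The members, lists and tests were chosen with earlier results of these data known. Named genes are the 9 members, the 12 rows most like their mean z score, the 3 most like each member, and 4 genes of a list, by r or by log2 difference; predicted and small RNA genes were passed over. Rpe65, Tyr and Crx were named as defining markers after their values were seen. Alternatives changed the variance prior, the weighting of arrays, the rows tested (without dim rows, or all), the scaling (array median, or lower quartile as covariate), the replicate block and the arrays or doses compared, and left out each array.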

Additional observations from a re-analysis of the deposited data

Results flagged for a closer look

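In 5 of 108 groups of 5 arrays (9 genes in 12 labelled groups), 1 array lay apart from the others of its group by a gap of more than 0.71 of the group's range; chance flags about 1 in 20 groups. Folr1 was at 7.96 on replicate 3 of KO at 0.50, against 8.19 to 8.21 on the other arrays of its group, and this array also had low Ttr, Kcnj13 and Sostdc1. Folr1 was at 8.12 on replicate 4 of WT at dose 0, against 8.24 to 8.28, and at 8.01 on replicate 2 of WT at 0.85, against 8.29 to 8.39. Clic6 was at 7.43 on replicate 1 of R-tg at dose 0, against 7.10 to 7.17. Kl was at 6.89 on replicate 4 of Q-tg at 0.75, against 6.60 to 6.67. None of 63 differences of response between labelled genotypes passed its test for a member.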

How the results depend on the processing

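No choroid plexus gene passed in any of the 21 contrasts or in the moderated F under any alternative, including the omission of each array in turn; the smallest limma adjusted p was 0.0548, for Kcnj13 in R-tg minus Q-tg at 0.85 with array weights, where the moderated F of Clic6 reached 0.0766. Array weights moved the count of all rows called to 39 in WT at 0.75, 1 in R-tg at 0.85, 1 for the mean at 0.85, 1 in R-tg minus Q-tg at dose 0, 118 in R-tg minus Q-tg at 0.85, 1 at 0.75, 2 in R-tg minus WT at 0.75, and 38 for the moderated F. Leaving out the 10 arrays against their Pon1 label gave 29 in KO minus WT at dose 0, 79 for the moderated F and 1 in R-tg minus Q-tg at 0.85. That last count was 9 over all rows and 2 with the lower quartile as covariate, which also gave 1 in R-tg minus WT at dose 0; the dim filter gave 1 in WT at 0.75. The 1 row called in R-tg minus WT at 0.75 became 0 under the other prior, all rows, centring, the lower quartile, the block and without the 10 arrays. Leaving out 1 array gave 0 to 1 rows in WT at 0.75 (1 under 6 of the omissions), 0 to 1 in R-tg minus WT at dose 0 (1 without replicate 1 of WT at dose 0), 0 to 1 in R-tg minus WT at 0.75 (0 under 12) and 0 to 25 in R-tg minus Q-tg at 0.85 (25 without replicate 5 of R-tg at 0.85). The cause of these moves was not tested.

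Of 57 member differences examined, 10 turned sign somewhere, mostly those near 0. Averaged over shared doses in place of dose 0, the difference was -0.00096 for Aqp1 in KO minus WT, 0.017 for Ttr and -0.025 for Kcnj13 in R-tg minus WT, and -0.0019 for Sostdc1 and -0.0237 for Kl in R-tg minus Q-tg. Kl was at 0.0174 in Q-tg at 0.75 and -0.0258 in Q-tg minus WT with the lower quartile, and -0.0026 in the latter after centring. Leaving out 1 array gave ranges of -0.0039 to 0.0942 for Aqp1 in WT at 0.85, -0.0204 to 0.0679 for Folr1 in KO at 0.50, -0.0515 to 0.0348 for Kl in Q-tg at 0.75, -0.0062 to 0.0477 for Ttr in R-tg at 0.75, -0.0321 to 0.0454 for Kl in Q-tg minus WT and -0.0163 to 0.0612 for Kl in R-tg minus Q-tg. With no change of sign, it gave -0.127 to -3.5e-05 for Kcnj13 in KO at 0.50, -0.111 to -0.0478 for Ttr in WT at 0.85, 0.0275 to 0.0883 for Ttr in R-tg at 0.85, 0.0685 to 0.148 for Kcnj13 and -0.0810 to -0.0270 for Ttr in R-tg minus WT, and 0.0215 to 0.116 for Aqp1 in KO minus WT.

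Replicate numbers do not pair the arrays (mean r of deviations -0.0094 over 330 same-numbered pairs, 0.0026 over 1320 others). With the replicate block the Kcnj13 difference in Q-tg at 0.75 was 0.30, and 109 of 110 values stayed on their side. Pairs of members past the threshold numbered 2 within WT, 1 within KO and 0 within R-tg, with 15 arrays each; r turned to -0.10 for Kcnj13 and Folr1 within WT and to 0.31 for Ttr and Kl within KO. Under the settings with all or nearly all arrays the count of 23 was 17 to 24; the 17, without the 2 lowest arrays, was chosen after seeing the data, as were all settings of the list relations (6 to 8 members for the Hox mean). Each gene had 1 row, so another choice of row could not be run. Signal over background limits Kl.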
